A study of Nicotiana tabacum with 8 samples.

Results

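The genes described here are 150 tobacco genes whose transcripts were higher with salt in the leaf blades of both wild type and an NtCBL5A-overexpressing line, in each of 2 independent experiments. They are 150 of the 81378 genes in the deposited table. They were selected on the ratio of salt to control within each experiment and genotype: FPKM (fragments counted per unit of transcript length and of library size) plus 0.1 had to be more than 1.5 times the control in all 4 ratios, with at least 50 counts in each of the 4 salt libraries and a mean of under 200 FPKM in control wild type. Of the 924 genes with all 4 ratios over 1.5, 263 also had the counts and 260 of those the control level. The 3 of these that the study names with an identifier were left out, no gene had to be left out because its genotypes differed by 3 times or more in all libraries, and of the 257 left the 150 with the highest lowest ratio were kept. Because the salt ratios chose the genes, the ratios are described below and not tested.

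The plants were tobacco cultivar Zhongyan 100 grown in hydroponics, either wild type (WT) or the homozygous transgenic line OE-2, in which the 35S promoter drives NtCBL5A in all tissues. OE-2 is a single line from leaf disk transformation with Agrobacterium, so the genotype and the line cannot be told apart. Plants were about 34 days old and were kept without added salt (C-WT, C-OE2) or given 100 mM NaCl for 4 days, with 50 mM on the first day (S-WT, S-OE2). Each of the 8 libraries pooled the blades, without main veins, of the fifth leaf of 4 plants, and each group had 1 library in experiment 1 and 1 in experiment 2. Nothing further says how the 2 experiments differed, and p-values below measure only the spread between these libraries. In a pooled leaf sample, a change in the share of a cell type and a change per cell cannot be told apart.

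Salt reaches a leaf first as an osmotic stress that limits water uptake, and later as an ionic stress when Na+ accumulates in the blade and disturbs K+ and Ca2+ balance. Calcineurin B-like proteins (CBLs) are plant Ca2+ sensors that bind and direct CIPK protein kinases, and in Arabidopsis such a pair activates the Na+/H+ antiporter SOS1. A leaf under salt commonly raises transcripts for protective proteins, detoxifying enzymes, transporters and transcription factors. The files do not pair the gene identifiers with names, and no identifier of the 150 matched the reference gene table used here, so each gene is called by its identifier and no function is given for it.

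Libraries held 18674594 to 31672013 counts. The files do not pair NtCBL5A with an identifier either, and the gene Nitab4.5_0007367g0040 was counted 0 times in the WT libraries and 12311 to 18196 times in those of OE-2. The 12 photosynthesis genes used as leaf markers were present in every library, at 81.0 FPKM or more. All 12 had all 4 salt ratios of FPKM below 1. The medians were 0.658 and 0.594 in WT and 0.263 and 0.284 in OE-2 (experiments 1 and 2). In each pair of libraries the deposited FPKM were divided by a larger share of the counts with salt. This makes these and all FPKM salt ratios below lower than by total counts. The S-WT libraries differed from each other in defense genes. PR1a, a pathogenesis-related protein gene induced in immune responses, measured 536 FPKM in S-WT of experiment 1 and 1.89 in S-WT of experiment 2, against 0 and 5.77 in the C-WT libraries and 21101 and 13986 in the S-OE2 libraries. The part of these differences in the values below was not tested, and the number of genes called higher in S-OE2 is also given without either S-WT library.

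The salt ratios of the 150 genes ran from 1.71 to 735. The median ratio was 3.36 in WT and 4.48 in OE-2 in experiment 1, and 2.69 in WT and 3.89 in OE-2 in experiment 2. Over the 25235 genes that met the count and level steps whatever their ratio, the medians were 0.999, 0.962, 0.974 and 0.928 in the same order. The lowest of a gene's 4 ratios exceeded 2 in 86 genes, 3 in 28, 5 in 12 and 10 in 5. At the edge of the set, the last genes kept, Nitab4.5_0015008g0020 and Nitab4.5_0009885g0020, had lowest ratios of 1.706 and 1.705, and the first not kept, Nitab4.5_0010854g0010 and Nitab4.5_0000421g0150, had 1.700 and 1.699.

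Control levels were mostly low. In C-WT, 25 genes had a mean under 1 FPKM, 93 had 1 to 10 FPKM and 32 had 10 FPKM or more, with a median of 3.74 FPKM and a range of 0.0762 to 151 FPKM. The median ratio of the genes under 1 FPKM was 7.30 in WT and 10.3 in OE-2 in experiment 1, and 5.47 and 15.2 in experiment 2. In the genes at 10 FPKM or more these medians were 2.52, 5.64, 2.23 and 3.17. In 112 of the 150 genes all 4 salt libraries lay above all 4 control libraries. The choice favoured this by holding all 4 ratios above 1.5, and the same count was not made over all genes. The other 38 genes overlapped across experiments or genotypes, although each was higher with salt within each experiment and genotype. Within WT alone, both salt libraries were above both controls in 130 of the 150 genes, and within OE-2 alone in 145. The choice favoured these counts too, and they were not made over all genes. In 20 of these 38 the lowest salt library was S-WT of experiment 2 and in 16 it was S-WT of experiment 1.

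The gene with the highest lowest ratio was Nitab4.5_0006133g0030, on scaffold Nitab4.5_0006133 from 112959 to 113507 on the minus strand, with an exon length of 408 bases. It was nearly silent without salt, at 0 and 0.152 FPKM in C-WT and 0.188 and 0.336 in C-OE2 (experiments 1 and 2, as for all pairs of values below), and reached 19.2 and 9.14 FPKM in S-WT, with 212 and 109 in S-OE2. All 4 salt libraries were far above all 4 control libraries, and both S-OE2 libraries were above both S-WT libraries. The control values rest on 0 and 1 counts in C-WT and 1 and 3 counts in C-OE2, against 66 to 2120 counts with salt, so the ratios of 193, 36.6, 735 and 250 (WT and OE-2 of experiment 1, then of experiment 2) have imprecise denominators.

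Nitab4.5_0000136g0200 was the most abundant of the 10 genes with the highest lowest ratio. It lies on scaffold Nitab4.5_0000136 from 643506 to 644239 on the minus strand. Its levels were 11.4 and 48.1 FPKM in C-WT, 16.2 and 88.7 in C-OE2, 316 and 1588 in S-WT, with 1097 and 1664 in S-OE2. Every group was higher in experiment 2, and the salt libraries still did not overlap the controls. Its 4 ratios were 27.5 and 67.3 in experiment 1 and 33.0 and 18.7 in experiment 2, so the larger ratio was in OE-2 in 1 experiment and in WT in the other.

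Nitab4.5_0007712g0010 and Nitab4.5_0000166g0100 were both below 1 FPKM in every control library. The first measured 0.302 and 0.0689 FPKM in C-WT, 0 and 0.0759 in C-OE2, 11.4 and 2.03 in S-WT, with 25.9 and 13.0 in S-OE2. The second measured 0.496 and 0.212 FPKM in C-WT, 0.218 and 0.104 in C-OE2, 12.9 and 3.18 in S-WT, with 20.7 and 13.3 in S-OE2. Both genes had the order S-OE2 over S-WT in each experiment and the lowest salt value in S-WT of experiment 2.

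Nitab4.5_0000723g0160 went the other way in experiment 2. It measured 1.06 and 3.08 FPKM in C-WT, 1.16 and 1.92 in C-OE2, 17.1 and 70.8 in S-WT, with 24.5 and 20.1 in S-OE2. The highest library was S-WT of experiment 2, and the salt and control libraries did not overlap. Nitab4.5_0005400g0010 had its highest level in S-WT of experiment 1: it measured 0.882 and 0.594 FPKM in C-WT, 0.508 and 0.805 in C-OE2, 32.0 and 4.81 in S-WT, with 6.86 and 13.6 in S-OE2. This gene lies on the plus strand of scaffold Nitab4.5_0005400 from 99992 to 101909, and the next gene on the scaffold, 4018 bases away on the minus strand, is PR1b. PR1b was at 196 FPKM in S-WT of experiment 1 and at 0 in S-WT of experiment 2, where Nitab4.5_0005400g0010 was 7.08 times its control.

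The remaining 4 of the 10 were Nitab4.5_0010009g0010, Nitab4.5_0008525g0010, Nitab4.5_0000430g0040 and Nitab4.5_0011813g0010, with lowest ratios of 6.74, 6.36, 5.46 and 5.18. Nitab4.5_0010009g0010 measured 0.317 and 0.316 FPKM in C-WT, 1.84 and 0.498 in C-OE2, 6.71 and 2.71 in S-WT, with 40.6 and 11.1 in S-OE2. Its S-OE2 libraries were the 2 highest, and its C-OE2 libraries were also above both C-WT libraries. Nitab4.5_0008525g0010 had close salt levels in both genotypes in experiment 1, at 47.1 FPKM in S-WT and 46.8 in S-OE2, and 15.9 and 28.8 FPKM in experiment 2. Its controls were 3.63 and 1.43 FPKM in C-WT and 7.26 and 3.50 in C-OE2, so the OE-2 ratio was the smaller in both experiments. Nitab4.5_0000430g0040 reached 3.50 and 2.64 FPKM in S-WT, with 8.01 and 2.96 in S-OE2, from 0.393 and 0.0448 in C-WT and 0.553 and 0.461 in C-OE2. Nitab4.5_0011813g0010 reached 2.60 and 2.83 FPKM in S-WT, with 14.1 and 3.30 in S-OE2, from 0.421 and 0.436 in C-WT and 0.512 and 0.320 in C-OE2. In both of these genes S-OE2 of experiment 1 stood above the other 3 salt libraries.

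**Figure D1:**
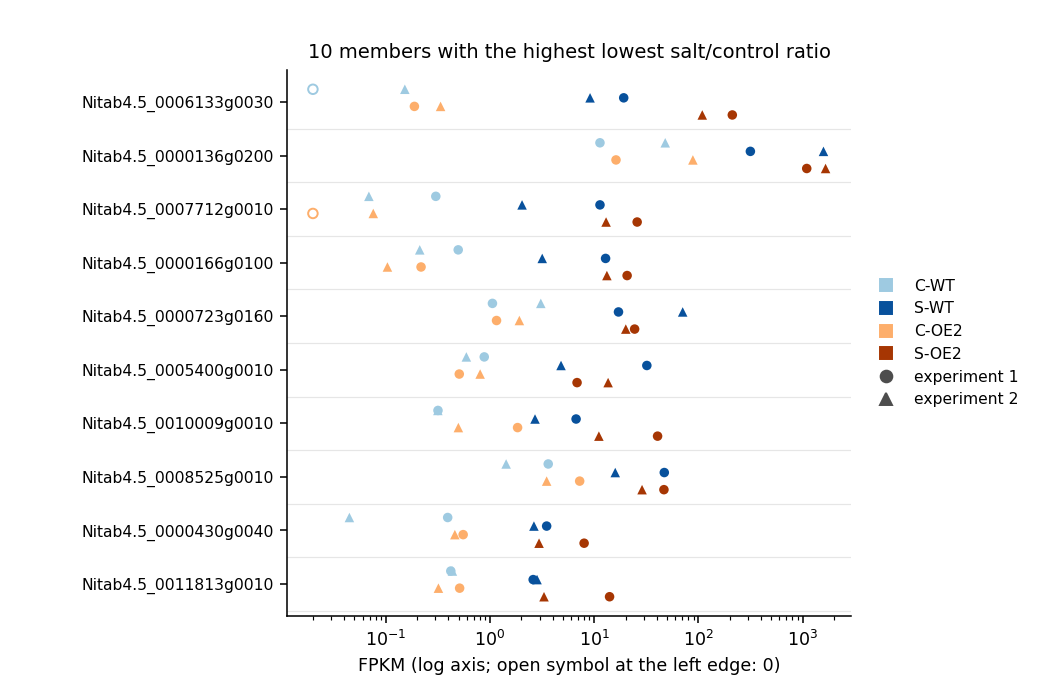
FPKM (log axis) of the 10 genes with the highest lowest salt/control ratio, 1 symbol per library, coloured by group, with circles for experiment 1 and triangles for experiment 2. In all 10 genes the 4 salt libraries lie to the right of the 4 control libraries, and the open symbols mark the libraries listed at 0.

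Genes with a high control level were in the set with smaller ratios. Nitab4.5_0000283g0170 had the highest C-WT mean, 151 FPKM, and measured 158 and 144 FPKM in C-WT, 144 and 123 in C-OE2, 358 and 614 in S-WT, with 1005 and 815 in S-OE2. Its 2 controls agreed closely between genotypes and experiments, and each S-OE2 library was above both S-WT libraries. Nitab4.5_0000926g0150 was the steadiest of the 5 genes with the highest C-WT mean. It measured 85.6 and 77.0 FPKM in C-WT, 77.6 and 56.8 in C-OE2, 156 and 142 in S-WT, with 148 and 146 in S-OE2. Its 4 salt libraries lay between 142 and 156 FPKM and its 4 ratios were 1.82 and 1.90 in experiment 1 and 1.85 and 2.57 in experiment 2.

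Of the other 3 of those 5, 2 overlapped between salt and control across experiments. Nitab4.5_0001540g0080 measured 12.7 and 75.5 FPKM in C-WT, 28.6 and 71.1 in C-OE2, 68.5 and 165 in S-WT, with 63.1 and 143 in S-OE2. Its control libraries of experiment 2 were above its salt libraries of experiment 1. Nitab4.5_0000663g0130 had 33.5 and 76.4 FPKM in C-WT, 30.2 and 89.2 in C-OE2, 70.7 and 144 in S-WT, with 198 and 257 in S-OE2, and its S-WT library of experiment 1 was below both controls of experiment 2. Nitab4.5_0015582g0010 measured 77.1 and 102.2 FPKM in C-WT and 34.7 and 92.3 in C-OE2, against 192 and 177 in S-WT, with 282 and 177 in S-OE2, without overlap.

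The ratios were larger in OE-2 in more genes than in WT. In 78 genes the OE-2 ratio was the larger in both experiments, in 24 the WT ratio was the larger in both, and in 48 the order changed between experiments. The median difference between the log2 ratios of OE-2 and WT was 0.55 in experiment 1 and 0.39 in experiment 2. Only 24 genes had ratios within 1.5 times of each other between genotypes in both experiments. Since all ratios were held above 1.5 by the choice of genes, these counts are a description.

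**Figure D2:**
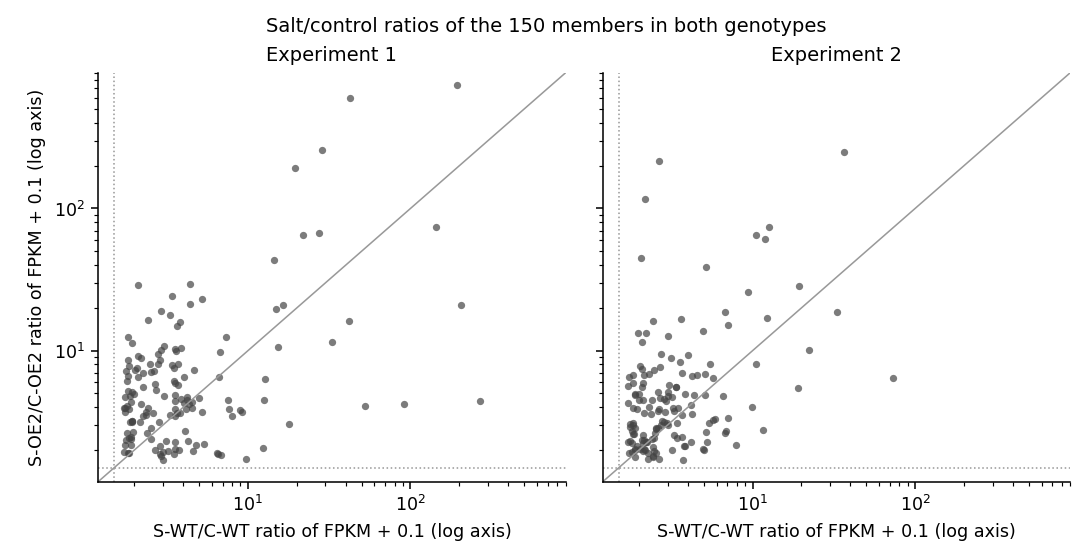
Salt/control ratio of FPKM + 0.1 in WT (horizontal, log axis) and OE-2 (vertical, log axis) for the 150 genes, 1 point per gene and 1 panel per experiment. Dotted lines mark the limit of 1.5 and the diagonal marks equal ratios; 101 points lie above it in experiment 1 and 103 in experiment 2.

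Nitab4.5_0001581g0010 had the largest excess of the OE-2 ratio among genes with the same order in both experiments. It lies on scaffold Nitab4.5_0001581 from 70786 to 72152 on the plus strand. It measured 14.9 and 26.5 FPKM in C-WT, 18.4 and 26.1 in C-OE2, 635 and 70.9 in S-WT, with 11096 and 5678 in S-OE2. The 4 control libraries were alike, the S-WT libraries differed from each other by a wide margin, and both S-OE2 libraries were far above both. Its ratios were 42.3 in WT and 601 in OE-2 in experiment 1, and 2.67 and 217 in experiment 2. By FPKM it ranked 4 and 10 among all genes in the S-OE2 libraries, and 308 and 2675 in the S-WT libraries.

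This gene carried a large part of the counts of the set. The 150 genes took 0.0661% and 0.0856% of all counts in the C-WT libraries, 0.0806% and 0.106% in C-OE2, 0.299% and 0.348% in S-WT, with 1.63% and 1.18% in S-OE2. Nitab4.5_0001581g0010 alone took 0.907% and 0.547% in S-OE2. Without it, the remaining genes took 0.260% and 0.343% in S-WT, with 0.721% and 0.634% in S-OE2. Both S-OE2 libraries stayed above both S-WT libraries, and both S-WT libraries above all controls.

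**Figure D3:**
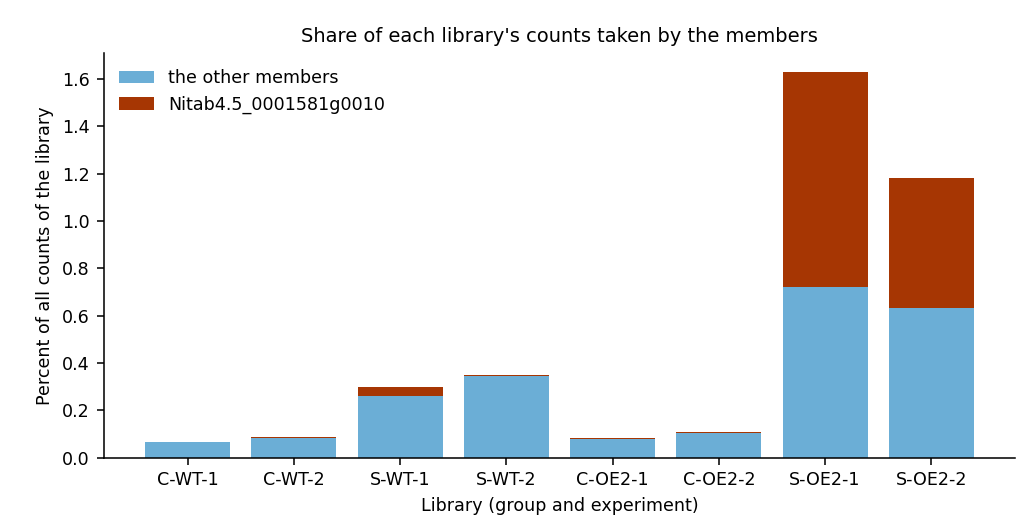
Percent of each library's counts taken by the 150 genes (vertical axis) in the 8 libraries, named by group and experiment, with Nitab4.5_0001581g0010 drawn apart from the other genes. The share was 0.0661% to 0.106% in the controls and reached 1.63% and 1.18% in S-OE2, of which Nitab4.5_0001581g0010 took 0.907% and 0.547%. The choice of genes favoured the rise with salt.

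Nitab4.5_0000287g0330 was also far higher in both S-OE2 libraries than in the other 6, at 0.177 and 1.71 FPKM in C-WT, 0.622 and 1.40 in C-OE2, 5.31 and 3.61 in S-WT, with 138 and 67.1 in S-OE2. Nitab4.5_0001711g0010 had less transcript in C-OE2 than in C-WT and more in S-OE2 than in S-WT: it measured 14.8 and 15.5 FPKM in C-WT, 5.83 and 7.31 in C-OE2, 31.1 and 32.6 in S-WT, with 172 and 85.7 in S-OE2. Its WT ratio was 2.10 in both experiments and its OE-2 ratios were 29.1 and 11.6.

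At the other end, 3 genes had the ratio most below that of WT in OE-2. Nitab4.5_0000040g0410 measured 0.516 and 0.147 FPKM in C-WT, 1.18 and 0.540 in C-OE2, 7.55 and 17.9 in S-WT, with 2.55 and 4.00 in S-OE2. Its 2 S-WT libraries were above its 2 S-OE2 libraries, and its C-WT libraries were below its C-OE2 library of the same experiment. Nitab4.5_0003313g0050 showed the same order, at 0 and 2.01 FPKM in C-WT, 3.03 and 2.24 in C-OE2, 26.8 and 24.5 in S-WT, with 13.8 and 6.40 in S-OE2. The third, Nitab4.5_0004570g0090, had similar salt levels in both genotypes, 16.1 and 19.9 FPKM in S-WT, with 17.8 and 17.6 in S-OE2, and differed in its controls, 1.72 and 3.91 in C-WT and 4.59 and 8.62 in C-OE2.

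The comparison of S-OE2 with S-WT addressed whether the genotypes differed under salt in the level these genes reached. The choice took the ratios of each genotype apart and set no direction between S-OE2 and S-WT. It used the same 4 salt libraries, however, so the comparison is not independent of it. The lowest ratio, which ranked a gene, was that of WT in 48 genes (experiment 1) and 57 genes (experiment 2). It was that of OE-2 in 18 and 27 genes, so the ranking rested more often on WT. The part of this in the counts below was not tested. All 150 genes were among the 44564 tested, since the count minimum of the choice carried them past the filter. By edgeR's quasi-likelihood test with the experiment as a block and Benjamini-Hochberg adjustment over all genes tested, 49 of the 150 (32.7%) were higher in S-OE2 at adjusted p under 0.05, where 4.17% of all genes tested were, and 0 were lower, where 3.20% were. At an unadjusted p under 0.05, 85 of the 150 passed in either direction (beside 21.5% of all genes tested), and DESeq2 called 58 higher and 0 lower, with 2116 higher and 2112 lower among the 58663 genes it was given. The median difference was 0.83 on the log2 scale, a fold of 1.78, beside 0.01 over all genes tested. Of the 150 genes, 134 (89.3%) lay above 0, beside 50.6% of all genes tested. The difference had the direction of higher in S-OE2 within both experiments in 109 genes and of lower in both in 8, which was not counted over all genes.

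The 49 genes differed by 1.83-fold to 28.4-fold, with a median of 3.16-fold. In 44 of them both S-OE2 libraries were above both S-WT libraries in FPKM, as they were in 77 of the 150 and in 18.4% of all genes tested, and the reverse held in 4 of the 150 and in 23.9% of all genes tested. The 107 genes that met the choice but ranked below the 150 gave 25 calls higher in S-OE2 (23.4%) and 1 lower, with a median of 0.71. These 107 were held to the same 4 ratios, so they are not an independent set. Among the 25085 other genes that met the count and level steps, 2.44% were called higher and 2.68% lower, with a median of -0.02. Of the genes under 1 FPKM in C-WT, 10 of 25 were called higher, as were 27 of the 93 at 1 to 10 FPKM and 12 of the 32 at 10 FPKM or more.

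The count depended on the salt libraries. It was 24 without S-WT of experiment 1, 28 without S-WT of experiment 2, 21 without S-OE2 of experiment 1 and 44 without S-OE2 of experiment 2, where the group with 1 library was taken to vary like the others. Over all genes tested, 1171, 875, 805 and 1148 were called higher in these 4 fits, in the same order, in place of 1860. The median difference stayed between 0.65 and 1.07 in these 4 fits. Without the replicate block, that is, without pairing the libraries of 1 experiment, 1 of the 150 genes was called and the median difference was 0.71, and over all 44564 genes 2 were called higher and 3 lower.

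**Figure D4:**
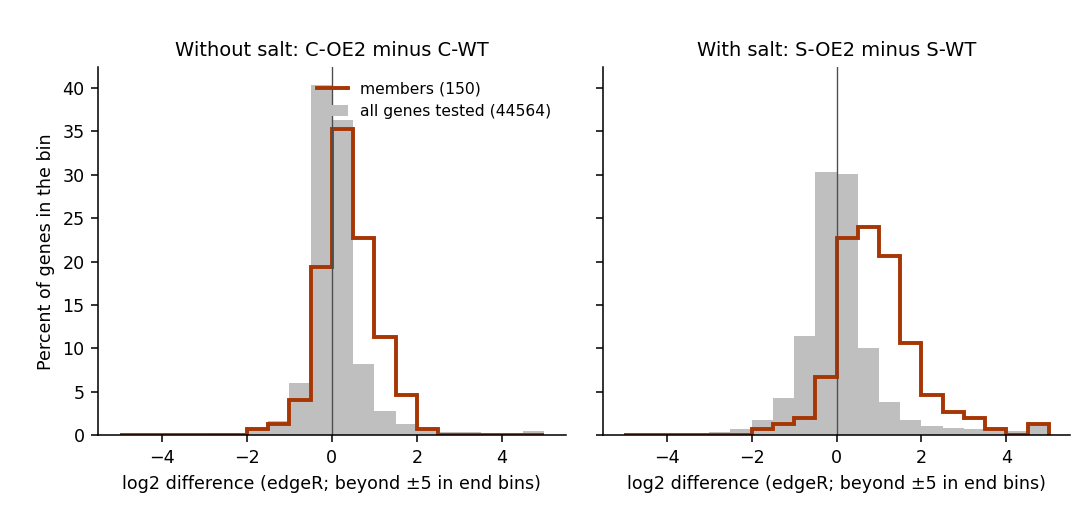
Percent of genes (vertical axis) by log2 difference between OE-2 and WT (horizontal axis, bins of 0.5), without salt on the left and with salt on the right, as an outline for the 150 genes and grey bars for the 44564 genes tested. The median of the 150 genes was 0.28 without salt and 0.83 with salt, and the median of all genes was 0.01 in both panels.

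The 3 genes with the largest differences among those called and higher within both experiments were Nitab4.5_0001581g0010, Nitab4.5_0000287g0330 and Nitab4.5_0006133g0030. Nitab4.5_0001581g0010 was higher in S-OE2 by 4.83 ± 0.86 (SE) on the log2 scale, with an adjusted p of 0.0142 by edgeR. Its estimate ran from 3.77 without S-WT of experiment 2 to 7.03 without S-WT of experiment 1, and its adjusted p was 0.0546 without S-OE2 of experiment 1. Nitab4.5_0000287g0330 was higher by 4.60 ± 0.61 (adjusted p 0.00654) and Nitab4.5_0006133g0030 by 3.59 ± 0.29 (adjusted p 0.00148), and both kept an adjusted p under 0.05 in every fit that left out 1 library. Of the 10 genes with the highest lowest ratio, Nitab4.5_0010009g0010 was also higher, by 2.42 ± 0.31 (adjusted p 0.00641), and so was Nitab4.5_0007712g0010, by 1.94 ± 0.44 (adjusted p 0.0310), and Nitab4.5_0000166g0100, by 1.42 ± 0.32 (adjusted p 0.0312). The call of Nitab4.5_0007712g0010 was lost without S-WT of experiment 2 (adjusted p 0.173) and without S-OE2 of either experiment (adjusted p 0.0592 and 0.16). The call of Nitab4.5_0000166g0100 was lost without S-WT or S-OE2 of experiment 2 (adjusted p 0.213 and 0.195) and without either C-OE2 library (adjusted p 0.0521 and 0.0525). Nitab4.5_0001711g0010, the gene with less transcript in C-OE2, was higher in S-OE2 by 2.06 ± 0.32 (adjusted p 0.00936), a call that was kept in every fit that left out 1 library.

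The other 6 of those 10 did not pass the test between S-WT and S-OE2. Nitab4.5_0000136g0200 differed by 1.12 ± 0.40 (adjusted p 0.133) and Nitab4.5_0011813g0010 by 1.504 ± 0.48 (adjusted p 0.0966). Nitab4.5_0000723g0160 and Nitab4.5_0005400g0010 had estimates below 0, -0.55 ± 0.47 and -0.50 ± 0.74, with the sign changing between experiments. Among the abundant genes, Nitab4.5_0000663g0130 was higher in S-OE2 by 1.28 ± 0.27 (adjusted p 0.0261), a call lost without S-WT of experiment 1 or 2 (adjusted p 0.124 and 0.101) or S-OE2 of experiment 1 (adjusted p 0.223), while Nitab4.5_0000926g0150 differed by 0.06 ± 0.19. The largest estimate in favour of S-WT was that of Nitab4.5_0000040g0410, -1.84 ± 0.51 (adjusted p 0.0637).

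Without salt, the genotypes were compared in the same genes with C-WT and C-OE2. None of the 150 genes was called, where 0.0157% of all genes tested were higher and 0.0202% lower in C-OE2, and the smallest adjusted p of a member was 0.169 (edgeR). At an unadjusted p under 0.05, 24 of the 150 passed (16.0%, beside 4.52% of all genes tested), and DESeq2 called 4 higher in C-OE2 and 0 lower. Among the 58663 genes it was given, DESeq2 called 199 higher and 46 lower. The median difference was 0.28 on the log2 scale, a fold of 1.21, beside 0.01 over all genes tested, and it was 0.51 without C-WT of experiment 2. The C-OE2 library was above the C-WT library of its experiment in both experiments in 74 genes and below in both in 15, which was not counted over all genes. The fitted difference lay above 0 in 74.7% of the 150 genes, beside 50.7% of all genes tested. In FPKM, both C-OE2 libraries were above both C-WT libraries in 38 of the 150 genes, beside 11.7% of all genes tested. The reverse held in 4, beside 13.0%. Of the 49 genes higher in S-OE2, 26 were above C-WT in C-OE2 in both experiments, beside the 74 of all 150. The largest estimates among the named genes were 1.605 ± 0.49 for Nitab4.5_0010009g0010, 1.55 ± 0.71 for Nitab4.5_0000430g0040 and 1.54 ± 0.88 for Nitab4.5_0000040g0410, with adjusted p of 0.716, 1.00 and 1.00.

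The difference of the salt effects between the genotypes (the interaction) is made of the ratios that chose the genes. Its counts and p-values are therefore given as a description, and no difference in response is read from them. None of the 150 genes was called by edgeR, where 0.0135% of all genes tested were called for a larger effect in OE-2 and 0.00224% for a smaller one, and the smallest adjusted p of a member was 0.0669. At an unadjusted p under 0.05, 40 of the 150 passed (beside 9.85% of all genes tested), and DESeq2 called 14 for a larger effect in OE-2 and 0 for a smaller one, with 400 larger and 421 smaller among its 58663 genes. The median was 0.43, beside -0.04 over all genes tested, and ran from 0.28 without S-OE2 of experiment 1 to 0.67 without S-WT of experiment 2. The estimate was 4.73 ± 1.10 (SE) for Nitab4.5_0001581g0010 and 3.21 ± 0.47 for Nitab4.5_0001711g0010.

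The level of the genes also differed between the experiments, which the ratios, taken within each experiment, did not fix. In the same fit, 18 of the 150 genes (12.0%) were higher and 27 (18.0%) lower in experiment 2, where 6.36% and 7.42% of all genes tested were. Scaling by total counts instead of by TMM factors (trimmed mean of M values) moved the median of all genes from 0.01 to 0.35 and turned the split to 32 higher and 18 lower. Over all 44564 genes tested, that scaling called 9398 higher and 1879 lower, in place of 2835 and 3305. The level was higher in experiment 2 in all 4 groups in 26 genes and lower in all 4 in 37, which was not counted over all genes. The fitted difference between experiments lay above 0 in 42.7% of the 150 genes, beside 50.5% of all genes tested. Of the 38 genes whose salt and control libraries overlapped, 26 were called between experiments, as were 19 of the 112 that did not overlap. With all 4 ratios above 1.5, an overlap needs a difference between experiments or genotypes. This link thus follows in part from the choice.

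The genes with the largest rise from experiment 1 to experiment 2 were Nitab4.5_0004465g0040, Nitab4.5_0011907g0010 and Nitab4.5_0000715g0150. Nitab4.5_0004465g0040 was higher in experiment 2 by 2.45 ± 0.38 (adjusted p 0.00441, edgeR), and measured 5.60 and 57.4 FPKM in C-WT, 5.25 and 43.9 in C-OE2, 15.8 and 127 in S-WT, with 50.4 and 100 in S-OE2. Both of its controls of experiment 2 were above S-WT of experiment 1, and the genotypes were close within each control pair. Nitab4.5_0011907g0010 and Nitab4.5_0000715g0150 were each higher by 2.07, with SE of 0.28 and 0.26 and adjusted p of 0.00241 and 0.00181. In S-WT these 2 genes measured 7.20 and 35.2 FPKM, and 9.38 and 63.9 FPKM, and in C-WT 0.819 and 9.14 FPKM, and 5.29 and 12.7 FPKM. The C-WT library of experiment 2 was thus above S-WT of experiment 1 in both.

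The genes with the largest fall were Nitab4.5_0002027g0030, Nitab4.5_0012932g0010 and Nitab4.5_0000170g0020, at -2.14 ± 0.20, -1.88 ± 0.24 and -1.73 ± 0.37 (adjusted p 0.000446, 0.00208 and 0.0177). Nitab4.5_0002027g0030 measured 9.10 and 2.34 FPKM in C-WT, 15.5 and 2.19 in C-OE2, 17.6 and 4.99 in S-WT, with 49.0 and 12.5 in S-OE2. Every group was lower in experiment 2, so that its S-WT library of experiment 2 was below both controls of experiment 1. Nitab4.5_0012932g0010 measured 13.0 and 3.93 FPKM in C-WT, 11.3 and 5.72 in C-OE2, 50.4 and 8.37 in S-WT, with 181 and 43.0 in S-OE2, and was also called higher in S-OE2, by 2.13 ± 0.33 (adjusted p 0.00937), a call lost without S-OE2 of experiment 1 (adjusted p 0.0511). Nitab4.5_0000170g0020 measured 14.9 and 3.56 FPKM in C-WT, 18.2 and 4.21 in C-OE2, 115 and 18.1 in S-WT, with 70.7 and 59.0 in S-OE2, and its lowest salt value was again S-WT of experiment 2, just under the highest control. All 6 of these genes kept their direction and their call with DESeq2 and with total counts.

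The same measure was then taken in libraries that had not chosen the genes. For this, 150 genes were chosen again from 1 experiment or 1 genotype by the same limits, with the count minimum asked only of the salt libraries that chose them. Of the 150 genes chosen in experiment 2, 119 (79.3%) exceeded 1.5 in WT and 128 (85.3%) in OE-2 of experiment 1, with median ratios of 2.71 and 4.37, where 12.4% and 16.6% of the other genes at the same level steps did. In the reverse choice the genotypes differed. Of the 150 genes chosen in experiment 1, 147 (98.0%) exceeded 1.5 in OE-2 of experiment 2, with a median ratio of 42.3, and 41 (27.3%) did in WT, with a median of 0.952, where 10.3% and 6.67% of the other genes did.

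Genes chosen in 1 genotype were measured in the other. Of the 150 genes chosen in WT, 101 exceeded 1.5 in OE-2 of experiment 1 and 120 in experiment 2, with medians of 2.79 and 2.81, and 90 of the 150 did in both, beside 4.89% of the other genes. Of the 150 chosen in OE-2, 149 exceeded 1.5 in WT of experiment 1, with a median of 19.3, and 33 (22.0%) did in WT of experiment 2, with a median of 1.00, where 15.3% and 8.21% of the other genes did. The sets thus differed in their overlap with the 150 genes of the main choice: they held 17 of them when chosen in experiment 1, 76 in experiment 2, 88 in WT and 4 in OE-2. No count was asked of the unused libraries here, so a gene at 0 FPKM there with and without salt has a ratio of 1.00. Such genes were not counted. The limits and exclusions of the main choice ask the count minimum of all 4 salt libraries, which lets the unused libraries take part. With these, the shares over 1.5 in both unused ratios were 48.7% (chosen in experiment 1), 66.0% (experiment 2), 64.7% (WT) and 44.7% (OE-2). Among the other genes they were 2.35%, 4.97%, 4.98% and 1.99%. In WT of experiment 2 the medians were then 1.53 (chosen in experiment 1) and 1.51 (OE-2). In each, 50.0% exceeded 1.5 there, beside 6.31% of the other genes.

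**Figure D5:**
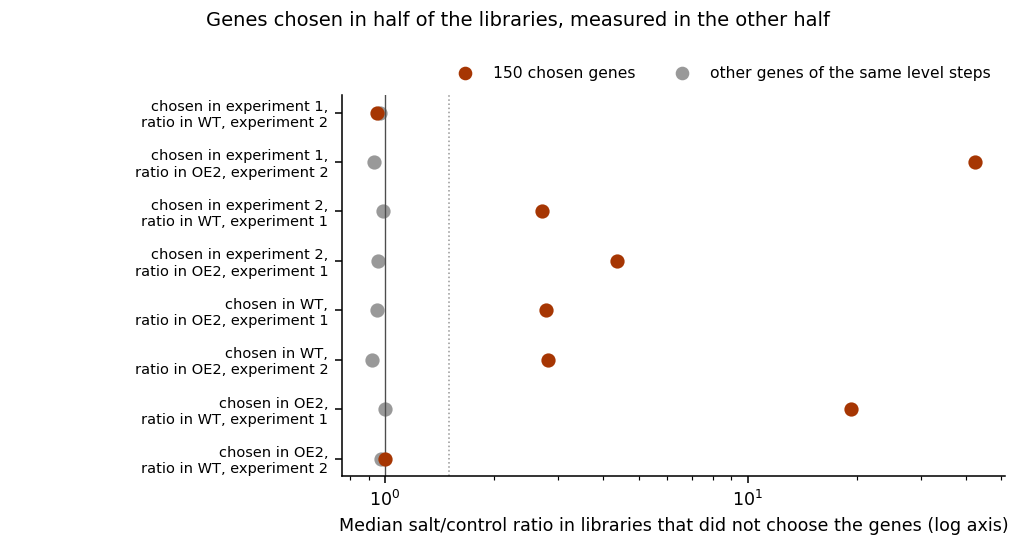
Median salt/control ratio (horizontal, log axis) in the libraries that did not choose the genes, for 150 genes chosen in 1 experiment or in 1 genotype (red) and for the other genes at the same level steps (grey). In WT of experiment 2 the chosen genes lie at 0.952 and 1.00, close to the grey points at 0.967 and 0.976. In the other 6 of the 8 rows they lie clearly to the right. No minimum count was asked of the libraries measured.

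Of the 28 genes that the study names with an identifier, 3 met the choice and were left out of the 150: NRP, HSR203J, a gene known from the hypersensitive response of tobacco, and NCX1, named for Na+/Ca2+ exchange. They were picked by the study on these samples. Of the 12 defense genes 2 had all 4 ratios over 1.5, of the 4 cation transport genes 1 did, and of the 12 photosynthesis genes none did. NCX1 measured 1.42 and 0.941 FPKM in C-WT, 1.33 and 0.921 in C-OE2, 4.73 and 2.85 in S-WT, with 15.9 and 9.56 in S-OE2. The other 10 defense genes fell short in WT of experiment 2, where all 10 had a ratio of 1.41 or less.

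The 150 genes were spread over the genome. They lay on 147 scaffolds of assembly Nitab-v4.5, of which 3 carried 2 of the genes each. Only 1 pair were neighbours: Nitab4.5_0004570g0090 (187007 to 192550) and Nitab4.5_0004570g0080 (193275 to 198686), both on the minus strand of scaffold Nitab4.5_0004570 with 724 bases between them. Nitab4.5_0004570g0080 measured 3.94 and 1.68 FPKM in C-WT, 3.0 and 9.06 in C-OE2, 17.0 and 12.2 in S-WT, with 14.6 and 24.8 in S-OE2, and like its neighbour was not called between the genotypes. The median exon length of the 150 genes was 1136.5 bases, beside 1287 bases in the other genes at the same level steps, and 4 (2.67%) were genes the authors assembled themselves, beside 7.30%. Tobacco is an allotetraploid, and reads from near-identical copies may be shared between genes, so the value of a single identifier is uncertain where such a copy exists.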

How the data were processed

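RNA-seq of 8 tobacco leaf libraries was analysed from 1 table with, for each gene, the read counts and FPKM that the authors deposited. Per the submitters' processing notes, HISAT2 2.0.5, StringTie 1.3.3b, featureCounts 1.5.0-p3 and DESeq2 1.20.0 were used by the authors, with Nitab-v4.5 as the assembly; strandedness and the handling of reads with several matches are not given in the sources used here. The deposited FPKM values imply denominators of 49.0% to 97.6% of a library's counts, so they are scaled beyond the total count. The denominator was larger with salt in each pair. In experiment 1 it was 49.0% in C-WT and 61.6% in S-WT, and 52.4% in C-OE2 and 82.8% in S-OE2. In experiment 2 these values were 62.7% and 78.3%, and 69.1% and 97.6%. The 150 genes and the lists were chosen with earlier results of these data known. Counts were fitted with edgeR 4.0.16 in R 4.3.3 (filterByExpr, TMM, quasi-likelihood test, group plus experiment, all 8 libraries), and p-values were adjusted by Benjamini-Hochberg over the 44564 genes tested. Libraries of 1 experiment deviated together (correlations of 0.383 to 0.517 in the 6 pairs of groups), and the number in the sample names marks the experiment, so the experiment was the replicate block. Libraries of 1 group differed by far more than sampling noise. DESeq2 1.42.0, no filter, total counts, no block, the 4 libraries of a comparison alone, leaving out each library and other forms of the choice were the alternatives. Named genes were the 10 with the highest lowest ratio, the 5 highest in C-WT, up to 3 called in each direction of a contrast with the largest change and the same direction in both experiments, the 3 with the most higher and the 3 with the most lower ratio in OE-2, neighbours, and genes at the edge of the choice. No identifier matched the reference gene table, and no sequence was used.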

Additional observations from a re-analysis of the deposited data

How the results depend on the processing

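The list of genes depended on the choice. It was met by 257 genes, by 916 with no minimum count, by 1239 with ratios of CPM by total counts, by 86 with all ratios above 2, and by 1345 and 663 with the ratios of experiment 1 or experiment 2 alone. Of the 150 genes kept, 38, 138, 86, 66 and 86 were kept again in these settings, in the same order, and 139 with FPKM + 1 and 148 with TMM-scaled CPM. A setting added after seeing the data asked the count minimum and the control limit only of the libraries that chose the genes. It also did not leave out genes apart by genotype. With it, the genes over 1.5 in both unused ratios were 41 in place of 73 (chosen in experiment 1) and 33 in place of 67 (chosen in OE-2).

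Without the replicate block, that is, without pairing libraries by experiment, 1 gene in place of 49 was higher in S-OE2, and it changed no other count of calls. The count of genes lower in S-OE2, 0 in the fit as reported, was 2 with no filter and 2 with the 4 libraries of the comparison alone. Over all the genes tested, 1886 and 1211 were lower in these settings, in place of 1428. Leaving out 1 library gave 21 to 48 genes higher and 0 to 2 lower in S-OE2. Higher in C-OE2 were 4 genes with DESeq2, 3 with no filter and 1 with the 4 libraries alone, in place of 0. Over all the genes tested, 199, 199 and 185 were higher in these settings, in the same order, in place of 7. For a larger salt effect in OE-2, DESeq2 called 14 genes, no filter 8 and total counts 1, in place of 0. Over all the genes tested, these settings called 400, 226 and 36, in place of 6. The interaction is made of the ratios that chose the genes, so nothing is read from these calls. With total counts 32 genes in place of 18 were higher in experiment 2, beside 9398 in place of 2835 over all genes tested. The median difference between experiments turned from -0.15 to 0.18 in the 150 genes. The median of all genes shifted from 0.01 to 0.30 between S-WT and S-OE2 under that scaling, which still called 65 of the 150 genes higher and 0 lower. Over all genes tested it called 3108 higher and 717 lower, in place of 1860 and 1428. The causes of these shifts were not tested beyond what each setting changes. With 2 libraries in a group and 1 transgenic line, the tests show differences between these libraries only.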
